A study of Mus musculus with 36 samples.

Results

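The 10 genes described here belong to serine synthesis and to the stress response run by the transcription factor ATF4, and were followed across all kidney arrays of the series. They are Psat1, Phgdh, Psph, Asns, Trib3, Atf4, Ddit3, Sesn2, Hspa5 and Herpud1, and every probe annotated to one of these symbols was taken, which gave 10 of the 16593 genes on the arrays and 15 of the 25697 probes. Asns had 3 probes, Ddit3, Sesn2 and Herpud1 had 2 each, and the other 6 genes had 1. The rule goes by symbol and uses no measured value, but the list was drawn up with earlier results of these data known.

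The arrays came from Balb/c mice killed 24 h after receiving 177Lu-octreotate, a radiolabelled somatostatin analogue that the kidney filters and takes up. The injected activities were 1.3, 3.6, 14, 45 and 140 MBq, and untreated animals stand at 0 MBq. Cortex and medulla were each measured on 3 Illumina bead arrays per activity, so that 36 arrays form 12 groups. The labels do not say whether the 3 arrays of a group came from 3 animals, and the p-values measure the spread between arrays, which may be technical in part. Each array's median raw intensity lay between 112 and 225, and 12152 to 13319 probes were detected, meaning that their detection p was under 0.05. The number of arrays limits the precision of every value below.

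Cells that lack amino acids, or whose endoplasmic reticulum holds unfolded protein, phosphorylate the translation factor eIF2alpha, and the mRNA of Atf4 is then translated more. ATF4 drives amino acid synthesis genes, among them Psat1, Phgdh, Psph and Asns, and stress genes such as Trib3, Ddit3 and Sesn2. A parallel arm through ATF6 and XBP1 drives chaperones and degradation factors of the endoplasmic reticulum, of which Hspa5 and Herpud1 are textbook examples. The proximal tubule is a known site of serine synthesis in the kidney. Since ATF4 is controlled at translation, its mRNA level is one measure among several of this response.

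The letters by which these 2 arms are usually told apart can be read in the genes' own promoters, and 5 of them are shown because each carries such a motif. The sequences are those of RefSeq on the mouse build GRCm38.p6, written 5′ to 3′ on the gene's strand, 120 bases each, and all 10 genes matched that table. Capitals mark TGNTGNAA, the core of the C/EBP-ATF response element, in Psat1 (chr19:15925132-15925251, minus strand), Asns (chr6:7693210-7693329, minus strand) and Trib3 (chr2:152344061-152344180, minus strand). In Hspa5 (chr2:34771970-34772089, plus strand) they mark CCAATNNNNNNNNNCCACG, the endoplasmic reticulum stress response element, and in Herpud1 (chr8:94386309-94386428, plus strand) ATTGGNCCACG, its second form.
Psat1: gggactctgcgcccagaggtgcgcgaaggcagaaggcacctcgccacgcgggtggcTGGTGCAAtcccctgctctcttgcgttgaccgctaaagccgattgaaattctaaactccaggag
Asns: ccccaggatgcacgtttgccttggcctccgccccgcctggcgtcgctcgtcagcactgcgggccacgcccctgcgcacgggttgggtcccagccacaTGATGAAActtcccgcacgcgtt
Trib3: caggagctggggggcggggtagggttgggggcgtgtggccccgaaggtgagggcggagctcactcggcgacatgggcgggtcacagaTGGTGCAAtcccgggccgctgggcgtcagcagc
Hspa5: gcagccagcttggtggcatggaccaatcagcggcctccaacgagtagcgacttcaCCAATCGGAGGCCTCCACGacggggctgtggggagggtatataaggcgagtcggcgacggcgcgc
Herpud1: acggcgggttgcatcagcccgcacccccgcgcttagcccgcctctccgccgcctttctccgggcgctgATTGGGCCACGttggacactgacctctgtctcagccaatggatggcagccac
The search covered both strands of 32851 promoter windows, from 250 bases before the start to 50 after it. TGNTGNAA was found in 14.8% of them, in 6 of the 11 windows of the 10 genes (Psat1 has 2 windows), and those 6 were Psat1, Phgdh, Asns, Trib3, Sesn2 and Herpud1. The first stress element was found in 0.119% of windows and the second in 0.0365%, and each was in 1 window of the 10 genes. No match of one motif overlapped a match of another in the windows of these genes. A match describes the letters and says nothing of binding in these kidneys.

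Signals are given as log2 of the background-corrected, normalised intensity, and changes as the injected mean minus the 0 MBq mean on that scale, with limma's standard error. A change is called where the p-value, adjusted by Benjamini and Hochberg over all genes of the comparison, is under 0.05. The comparisons of a tissue share its 3 arrays at 0 MBq, so their values are set side by side and are not independent. In whole tissue, fewer cells of a type and less RNA per cell cannot be told apart. Psph was detected on 0 of 36 arrays, with signals between 4.57 and 5.12, and is given no change. The other 9 genes were tested in every comparison.

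The calls were few and lay with Psat1, Sesn2, Hspa5 and Herpud1. In cortex, 1 of the 9 tested genes was called at 1.3 MBq (Psat1, where 0.333% of all genes were called), 0 at 3.6 MBq (0.435%), 0 at 14 MBq (1.37%), 1 at 45 MBq (Herpud1, 0.99%) and 0 at 140 MBq (0.953%). In medulla, 2 were called at 1.3 MBq (Psat1 and Sesn2, 0.773%), 0 at 3.6 MBq (1.92%), 1 at 14 MBq (Hspa5, 4.36%), 0 at 45 MBq (2.36%) and 0 at 140 MBq (1.51%). The test for any difference among the 6 activities called 0 of 9 in cortex (0.722%) and 4 of 9 in medulla (5.22%). Those 4 were Psat1, Sesn2, Atf4 and Hspa5. In that test 4 of the 9 in cortex had an unadjusted p under 0.05, as did 1274 of all 10803 genes. In medulla 5 of the 9 did, and 2804 of all 10869 genes. The median change of the 9 genes ran from 0.11 at 3.6 MBq to 0.54 at 14 MBq in cortex and from -0.32 at 3.6 MBq to 0.35 at 14 MBq in medulla, while the median of all genes stayed between -0.02 and 0.02.

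**Figure D1:**
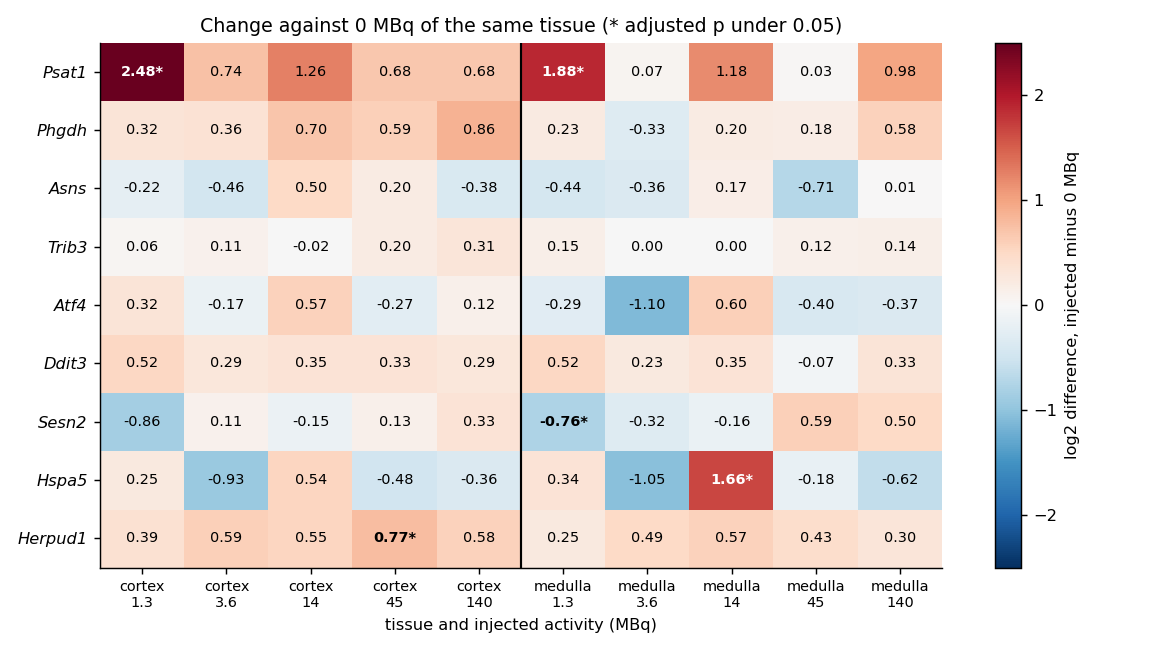
Change of 9 genes (rows) at 5 injected activities in cortex and medulla (columns), as log2 of the injected mean minus log2 of the 0 MBq mean of the same tissue, 3 arrays per group, with an asterisk where the adjusted p was under 0.05. Psat1 carries the darkest cells, 2.48 in cortex and 1.88 in medulla at 1.3 MBq, and Herpud1 is positive in all 10 columns; Phgdh was not detected on the cortex arrays at 0 MBq, so its cortex cells are fitted values and no measure of fold.

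Serine is made from a glycolytic intermediate in 3 steps, by Phgdh, Psat1 and Psph in that order. Psat1, the transaminase of the middle step, was the gene that moved most. In cortex it stood at 12.41, 10.39 and 11.30 on the 1.3 MBq arrays, against 8.40, 9.03 and 9.24 at 0 MBq. All 3 injected arrays lay more than 1 log2 unit above the highest 0 MBq array, and replicate 1 was the brightest of the 18. The change was 2.48 ± 0.44, or 5.57-fold, with an adjusted p of 0.0268 in limma's test.

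Medulla gave the same order of the 1.3 MBq arrays. There Psat1 stood at 11.73, 10.54 and 10.85 at 1.3 MBq, against 9.35, 8.99 and 9.14 at 0 MBq, again with no overlap. For comparison, all 3 arrays of an activity lay above the 3 at 0 MBq for 7.28 to 13.2% of all genes, and below them for 6.79 to 13.3%, over the 10 contrasts. The change of Psat1 in medulla was 1.88 ± 0.37, or 3.69-fold, with an adjusted p of 0.0288. Both calls rest on particular arrays: leaving out 1 array at a time gave 1.96 to 2.97 in cortex with adjusted p between 0.0122 and 0.123, and 1.54 to 2.13 in medulla with adjusted p between 0.0203 and 0.160. In each tissue the call was lost without replicate 1 or 3 at 1.3 MBq and without replicate 1 or 2 at 0 MBq, which are 4 of 18 arrays.

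At the next activity up, Psat1 was nearer to its level in untreated kidneys. The 3.6 MBq arrays held 9.21, 9.48 and 10.18 in cortex and 8.64, 8.98 and 10.05 in medulla, which in both tissues overlap the 0 MBq values. In cortex the overlap was narrow, with 9.21 against a highest 0 MBq array of 9.24. At 14 MBq they were at 10.80, 9.81 and 9.83 in cortex and at 10.94, 9.97 and 10.12 in medulla, all 6 above the highest 0 MBq array of their tissue. Those differences of 1.26 and 1.18 did not pass the test over all genes, with adjusted p of 0.175 and 0.0785. The 45 MBq arrays held 9.35, 9.23 and 10.12 in cortex and 8.84, 9.50 and 9.23 in medulla. At 140 MBq the signals were 9.95, 9.40 and 9.35 in cortex and 10.47, 10.33 and 9.61 in medulla. Over the 5 activities 13 of 15 cortex arrays and 11 of 15 medulla arrays lay above the highest 0 MBq array, counts for which no share over all genes was computed. The order of activities was thus not monotonic: the slope per doubling of activity over the 15 injected arrays was -0.21 ± 0.07 in cortex (adjusted p = 0.296) and -0.10 ± 0.08 in medulla (adjusted p = 0.702). The test for any difference had an adjusted p of 0.0218 in medulla, between 0.00415 and 0.0472 with any 1 array left out, and 0.0954 in cortex.

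**Figure D2:**
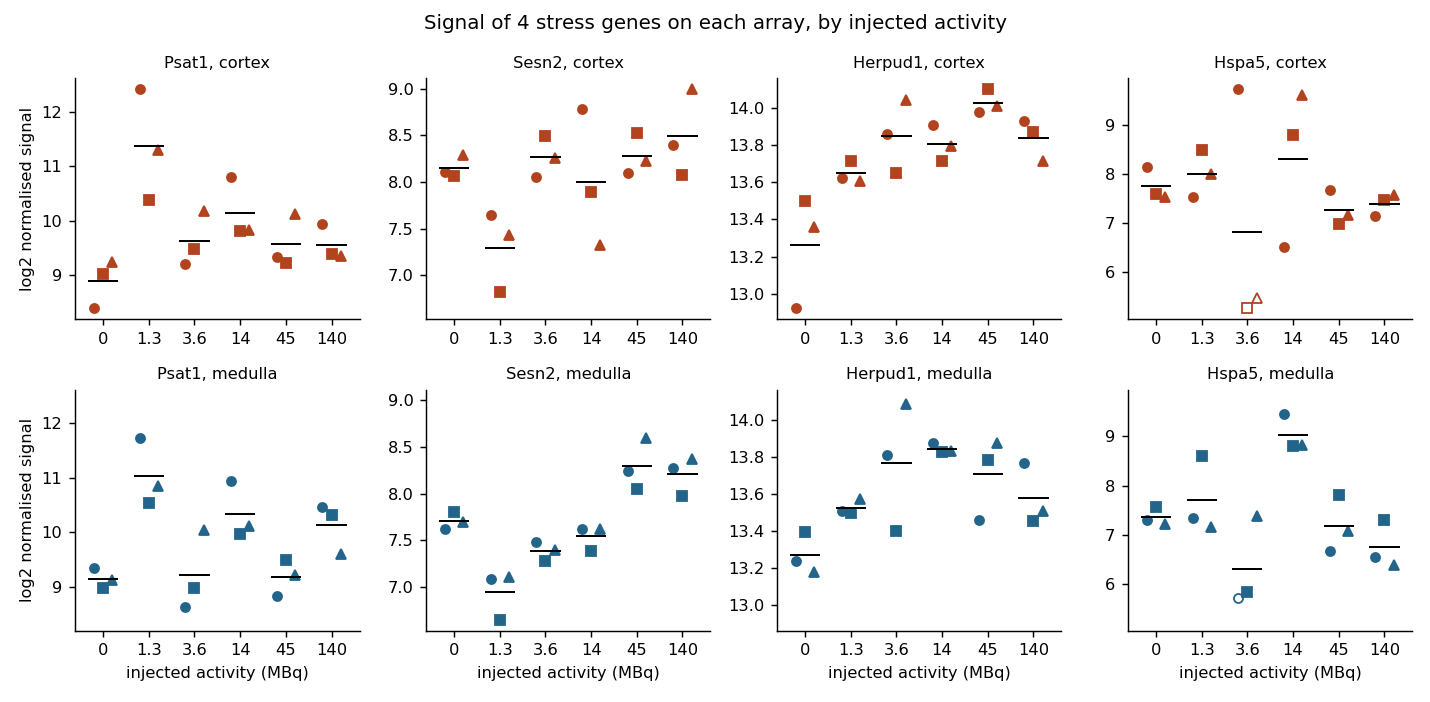
Log2 normalised signal (vertical axis) of Psat1, Sesn2, Herpud1 and Hspa5 on every array by injected activity in MBq (horizontal axis), cortex above and medulla below. Circles, squares and triangles are replicates 1, 2 and 3, bars are group means, and open symbols are arrays where the probe was not detected. The 1.3 MBq mean of Psat1 is the highest of each tissue, though the 14 MBq replicate 1 array lies within the 1.3 MBq range in both. The mean of Sesn2 climbs from 1.3 to 45 MBq in medulla and is no higher at 140 MBq. Every injected array of Herpud1 lies above the 0 MBq arrays of its tissue.

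The cell type markers at 1.3 MBq give the setting of these values. The mean of 11 proximal tubule markers, each centred on its own mean, ran from -0.44 to 0.31 at 1.3 MBq, against -0.91 to 0.31 at 0 MBq in cortex, and from -0.12 to -0.02, against -1.19 to -0.02, in medulla. Replicate 1 at 0 MBq held the lowest value of both tissues. The mean of 12 myeloid markers ran from -0.77 to 0.39 at 1.3 MBq, against -0.32 to 1.66 at 0 MBq, in cortex, and from 0.05 to 0.75, against 0.52 to 2.20, in medulla, and that of 5 fibroblast markers from -0.59 to 0.04, against -0.19 to 1.102, and from -0.16 to -0.13, against 0.16 to 1.36. The part of these cells in the Psat1 signal was not tested. Without replicate 1 at 0 MBq the change of Psat1 at 1.3 MBq was 2.23 in cortex (adjusted p = 0.123) and 1.98 in medulla (adjusted p = 0.0825). The 9 tested adipocyte markers had a mean of 3.37 on the cortex array of 1.3 MBq replicate 2, which was the lowest of the 3 for Psat1. With the 3 cortex arrays whose adipocyte mean exceeded 2 left out, the change of Psat1 in cortex was 2.97 (adjusted p = 0.0215).

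The 5 cortex genes whose pattern over the 18 arrays came nearest to that of Psat1 were Eif4ebp3, Creb3l3, Acot2, Gpat3 and Col27a1. Likeness was measured by the root mean square difference of centred log2 signals, which ran from 0.47 to 0.60 where Psat1 itself had an SD of 0.93, and Pearson's r was 0.76 to 0.85. These values describe arrays that share background, depth and tissue make-up. Creb3l3 is a transcription factor of the endoplasmic reticulum membrane known from liver. It was detected on 3 of 3 cortex arrays at 1.3 MBq (8.27, 6.49 and 7.32) and on 0 of 3 at 0 MBq. It was called in cortex at 1.3 MBq (adjusted p = 0.0327), but not without replicate 1 (0.123) or replicate 2 (0.0966) at 0 MBq. In medulla the nearest named genes were Irs3, Slc14a1 and Gpd2, with r between 0.70 and 0.77.

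Phgdh, the dehydrogenase that commits carbon to serine, was dim. In cortex it was not detected on any 0 MBq array (5.20, 5.20 and 5.22), and was detected on 1 array at 1.3 MBq, 1 at 3.6 MBq, 2 at 14 MBq, 2 at 45 MBq and all 3 at 140 MBq (5.86, 6.30 and 6.05). Set against the detection limit of the 0 MBq arrays, the mean signal was at least 1.16-fold higher at 14 MBq, at least 1.08-fold at 45 MBq and at least 1.30-fold at 140 MBq, with adjusted p of 0.192, 0.332 and 0.164, so no change was called. Of the 15 injected arrays 6 were not detected, and the 0 MBq signals were background, so a count of arrays above them is not given.

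Medulla held more of it. The medulla arrays of Phgdh read 6.60, 7.01 and 6.50 at 140 MBq, against 6.93, 5.96 and 5.47 at 0 MBq, and the groups overlap, since replicate 1 at 0 MBq was among the brightest. The difference was 0.58 (adjusted p = 0.425). Over the injected arrays the mean of Phgdh was 5.78 in cortex and 6.29 in medulla, a difference of -0.52 ± 0.13 (adjusted p = 0.00468). It was detected on 9 of those 15 cortex arrays and 13 of 15 medulla arrays, and with the deposited normalisation the difference was -0.18 (adjusted p = 0.00741). Phgdh was 1 of 3 of the 9 genes called between the tissues, where 22.6% of all genes were. At 0 MBq none of the 9 was called between tissues (0.384%). An unadjusted p under 0.05 was found for 1 of the 9, and for 1037 of all 11471 genes.

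Asns, which makes asparagine and is a standard readout of amino acid shortage, passed no test at any activity. Its main probe was detected on all 36 arrays, and the adjusted p of the 10 contrasts with 0 MBq ran from 0.205 to 0.994. In cortex the arrays of 1 activity differed more than the activities did. The 14 MBq arrays read 9.64, 7.78 and 10.85, and the 0 MBq arrays 9.62, 8.80 and 8.36. The 1.3 MBq arrays read 8.09, 10.10 and 7.94, with replicate 2 far above the others, and the 45 MBq arrays 9.44, 7.84 and 10.10, with replicate 2 far below. The SD over the 18 arrays was 0.90 in cortex and 0.46 in medulla.

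The 3 brightest cortex arrays of Asns were those of 1.3 MBq replicate 2, 14 MBq replicate 3 and 45 MBq replicate 3. Its dimmest probe, otherwise undetected in cortex, was detected on the same 3 arrays (5.68, 6.84 and 5.93). They were also the arrays with adipocyte marker means of 3.37, 3.39 and 2.61, the highest of the cortex. Among the defining adipocyte markers, Plin1 read 7.91, 8.29 and 7.86 on them, while Retn was detected on 2 arrays and Fabp4 on 3 in the whole series. The array of 14 MBq replicate 3 also had an adrenal cortex marker mean of 5.01, where all other cortex arrays lay between -0.45 and -0.02. In medulla, too, 14 MBq replicate 3 had an adrenal cortex marker mean of 4.14, where all other medulla arrays lay between -0.47 and 0.62. The part of these cells in the Asns signal was not tested. With the 3 arrays left out, the change of Asns was -0.91 at 1.3 MBq, -0.22 at 14 MBq and -0.29 at 45 MBq, against -0.22, 0.50 and 0.20 with them, and no value was called.

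The genes nearest to Asns over the 18 cortex arrays, by the same measure as for Psat1, were Eif4ebp1 (r = 0.92), Dhdh, Acvr1c, Atf5 (r = 0.88) and Mycl. Eif4ebp1, a brake on cap-dependent translation, and Atf5, a transcription factor related to ATF4, are known ATF4 targets. Eif4ebp1 read 10.73, 11.43 and 10.64 on the 3 arrays named above and between 8.79 and 10.16 on the other 15. In medulla Eif4ebp1 (r = 0.78) and Atf5 (r = 0.74) were again among the 5 nearest genes. The adipocyte means of the medulla arrays ran from -1.98 to 1.65, and the part of these cells in the likeness was not tested.

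**Figure D3:**
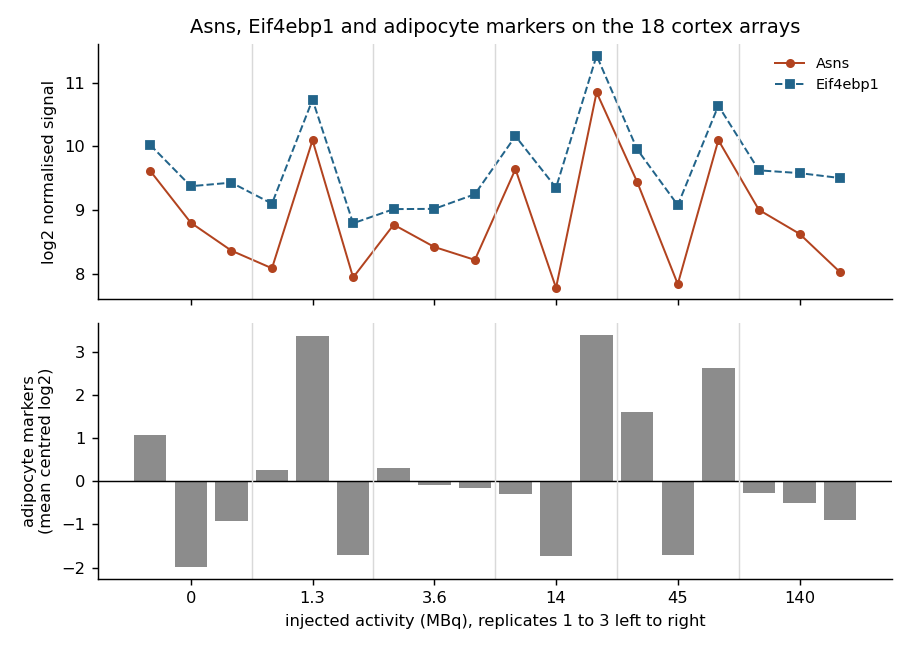
Log2 normalised signal of Asns and Eif4ebp1 (upper panel) and the mean of 9 centred adipocyte markers (lower panel, bars from 0) on the 18 cortex arrays, grouped by injected activity in MBq with replicates 1 to 3 from left to right. The 3 highest bars, between 2.61 and 3.39, stand under the 3 highest points of Asns.

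Atf4 itself was detected on all arrays of both tissues. Its medulla signals were 7.77, 8.003 and 7.67 at 0 MBq, 7.58, 7.92 and 7.08 at 1.3 MBq, 6.05, 6.61 and 7.49 at 3.6 MBq, 8.63, 8.28 and 8.32 at 14 MBq, 7.21, 7.78 and 7.26 at 45 MBq, and 7.35, 7.53 and 7.47 at 140 MBq. The 3.6 MBq and 140 MBq arrays lay below every 0 MBq array and the 14 MBq arrays above every one. Of the 15 injected arrays 10 lay below the lowest 0 MBq array and 3 above the highest. The test for any difference called Atf4 in medulla (adjusted p = 0.0304), and the call was lost without replicate 1 or 2 at 3.6 MBq or without any 1 of the 3 arrays at 14 MBq (0.00324 to 0.0944 over all 18 omissions). Singly, the change of -1.10 ± 0.29 at 3.6 MBq had an adjusted p of 0.0566 and that of 0.60 at 14 MBq one of 0.228. Without replicate 3 at 3.6 MBq the change at 3.6 MBq was -1.48 with an adjusted p of 0.00710.

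In cortex the Atf4 arrays overlapped more. They read 7.90, 6.78 and 7.05 at 3.6 MBq and 7.49, 8.12 and 8.34 at 14 MBq, against 7.12, 7.52 and 7.59 at 0 MBq, and nothing was called. The gene whose medulla pattern was nearest to that of Atf4 was Ccnl1, a cyclin of RNA processing (r = 0.96 over 18 arrays), and 70 of 10868 genes, or 0.644%, had an r above 0.9 with it.

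Ddit3 encodes CHOP, a transcription factor downstream of ATF4 that is tied to cell death under lasting stress. No contrast called it. Its medulla arrays read 7.89, 8.05 and 7.93 at 1.3 MBq, against 8.13, 7.25 and 6.94 at 0 MBq. Replicate 1 at 0 MBq was above every injected array and the other 2 were below every one, and on the second probe replicate 1 was also the highest at 0 MBq (8.09, 7.06 and 7.14). Without that array the change was 0.86 at 1.3 MBq, 0.69 at 14 MBq and 0.68 at 140 MBq, with adjusted p of 0.0262, 0.0360 and 0.0358. The changes of 0.58 at 3.6 MBq and 0.27 at 45 MBq did not pass, with adjusted p of 0.0752 and 0.396. The mean of the 5 activities was 0.62 higher without that array (adjusted p = 0.0237).

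That array also held the highest mean of 12 myeloid markers of any array, 2.20, and the lowest of the proximal tubule markers, -1.19. The part of either in the Ddit3 signal was not tested. In cortex the Ddit3 arrays read 8.51, 7.75 and 7.39 at 1.3 MBq and 8.96, 6.87 and 7.31 at 14 MBq, against 7.83, 7.10 and 7.17 at 0 MBq, and overlapped throughout.

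Trib3, a pseudokinase that ATF4 and CHOP induce and that restrains them, was near the detection limit. It was detected on 10 of 18 cortex arrays and 4 of 18 medulla arrays, with signals from 5.12 to 6.48 on all 36, and no activity was called. Over the injected arrays, of which 9 of 15 in cortex and 3 of 15 in medulla detected it, its fitted mean was 5.82 in cortex and 5.52 in medulla (adjusted p = 0.0147). The difference of 0.30 ± 0.09 is no measure of fold, since most of the medulla arrays were at background, and it was 0.10 with the deposited normalisation (adjusted p = 0.0326).

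Sesn2 encodes a leucine-binding inhibitor of the growth kinase complex mTORC1 and is induced by both ATF4 and p53. It was the gene of the 10 with a graded response in medulla, though its mean was no higher at 140 MBq (8.21) than at 45 MBq (8.30). The medulla signals were 7.62, 7.80 and 7.70 at 0 MBq, 7.08, 6.65 and 7.10 at 1.3 MBq, 7.48, 7.28 and 7.39 at 3.6 MBq, 7.62, 7.38 and 7.62 at 14 MBq, 8.24, 8.05 and 8.60 at 45 MBq, and 8.27, 7.98 and 8.37 at 140 MBq. All 6 arrays at 1.3 and 3.6 MBq lay below the 0 MBq arrays, and all 6 at 45 and 140 MBq above them. Over the 15 injected arrays Sesn2 rose by 0.20 ± 0.03 per doubling of activity, with an adjusted p of 0.000398. It was the only 1 of the 9 genes called for a slope in medulla, where 0.823% of all genes were, and 0 of 9 were in cortex (0.728%). With any 1 array left out the slope was 0.18 to 0.22 and the adjusted p 0.000194 to 0.00232, and with the deposited normalisation they were 0.12 and 0.000473.

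At 1.3 MBq the mean of Sesn2 in medulla was 6.94, against 7.71 at 0 MBq, a change of -0.76 ± 0.16 with an adjusted p of 0.0408. That single call was weak: 14 of 18 omissions of an array ended it, with changes of -0.84 to -0.62, as did the deposited normalisation (-0.40, adjusted p = 0.0624). At 45 MBq the change was 0.59 ± 0.16 (adjusted p = 0.0667) and at 140 MBq 0.50 (adjusted p = 0.173). The test for any difference had an adjusted p of 0.00123. The second Sesn2 probe, which is dim, was detected in medulla on all 3 arrays at 45 MBq (5.80 to 6.09) and all 3 at 140 MBq (5.63 to 6.16) and on none at 0 MBq. Its mean was at least 1.25-fold and at least 1.18-fold higher there than the detection limit at 0 MBq, and tested as its own probe it was called at 45 MBq (adjusted p = 0.0451). The second probe was also undetected on all medulla arrays at 1.3, 3.6 and 14 MBq. It therefore gives no comparison with 0 MBq at those activities.

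Cortex held the low point of Sesn2 at 1.3 MBq as well. The cortex arrays read 7.64, 6.82 and 7.43 at 1.3 MBq, against 8.11, 8.06 and 8.29 at 0 MBq, without overlap, but the change of -0.86 ± 0.32 had an adjusted p of 0.288. The cortex slope of Sesn2 was 0.14 ± 0.05 per doubling (adjusted p = 0.296). At 14 MBq the 3 cortex arrays were spread from 7.33 to 8.78. The second probe was detected on all 3 cortex arrays at 0 MBq and on 0 at 14 MBq. Its mean at 0 MBq was at least 1.26-fold above the detection limit at 14 MBq. At 140 MBq the 2 probes differed in direction in cortex. The second had a mean of 5.95, against 6.12 at 0 MBq, and the main probe 8.49, against 8.15. Over the injected arrays Sesn2 averaged 8.07 in cortex and 7.68 in medulla, a difference of 0.39 ± 0.12 (adjusted p = 0.0143), or 0.24 with the deposited normalisation (adjusted p = 0.0168).

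Cdkn1a, the standard p53 target, was set beside Sesn2. Its medulla arrays read 8.68, 9.06 and 7.67 at 0 MBq, 8.74, 7.92 and 8.14 at 1.3 MBq, 7.61, 8.23 and 8.22 at 3.6 MBq, 10.34, 9.75 and 9.62 at 14 MBq, 10.28, 10.79 and 10.91 at 45 MBq, and 11.68, 11.18 and 11.71 at 140 MBq. The slope of Cdkn1a was 0.54 ± 0.05 per doubling in medulla (adjusted p = 9.12e-06) and 0.58 ± 0.04 in cortex (adjusted p = 1.57e-06). The 14 MBq arrays of Cdkn1a were already above all those of 0 MBq, while those of Sesn2 were within or just below the 0 MBq range.

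Hspa5 encodes BiP, the main Hsp70 chaperone of the endoplasmic reticulum and the usual marker of its stress. In medulla it stood at 9.45, 8.79 and 8.83 at 14 MBq, against 7.31, 7.57 and 7.22 at 0 MBq, with all 3 injected arrays far above. The change was 1.66 ± 0.44, or 3.16-fold, with an adjusted p of 0.0450. The call was lost in 10 of 18 omissions of an array (1.45 to 1.78, adjusted p 0.0209 to 0.144), and with the replicate number as a block the adjusted p was 0.0524. At 3.6 MBq the medulla arrays were low instead, at 5.72, 5.85 and 7.38, a change of -1.05 (adjusted p = 0.209). The other activities overlapped 0 MBq or lay near it: 7.34, 8.61 and 7.16 at 1.3 MBq, 6.68, 7.81 and 7.07 at 45 MBq, and 6.55, 7.31 and 6.39 at 140 MBq. The test for any difference had an adjusted p of 0.0210 and lost its call without any 1 of the 3 arrays at 14 MBq. Replicate 3 of these was the medulla array with an adrenal cortex marker mean of 4.14. The part of adrenal cells in the medulla values at 14 MBq was not tested, for Hspa5 or for the other genes named. In the fit of all 36 arrays neither call held, with adjusted p of 0.251 at 14 MBq and 0.217 for any difference.

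In cortex Hspa5 was spread within activities. The 3.6 MBq arrays read 9.72, 5.27 and 5.48, of which replicate 1 was the brightest of all cortex arrays and the other 2 were not detected. The 14 MBq arrays read 6.52, 8.79 and 9.60, against 8.14, 7.60 and 7.53 at 0 MBq. No contrast was called in cortex. Without replicate 1 at 3.6 MBq both remaining arrays were undetected, and set against their detection limit Hspa5 was at least 3.68-fold lower there than at 0 MBq, with an adjusted p of 0.0426 in the fit.

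Other genes shared this array-to-array pattern, and they were not sorted by compartment. In cortex 91 of 10802 genes, or 0.842%, had an r above 0.9 with Hspa5 over the 18 arrays, and in medulla 21 of 10868, or 0.193%. The nearest gene in cortex was Nono, a nuclear RNA-binding protein (r = 0.95), followed by Impa1, Cct5, Vps4b and Phf12. Hsp90aa1, the stress-inducible Hsp90 of the cytosol, was chosen after its values were seen. Its cortex arrays at 3.6 MBq read 9.27, 5.41 and 5.06 and those at 14 MBq 6.92, 8.38 and 9.33, high and low on the same arrays as Hspa5. In medulla Hsp90aa1 was called at 14 MBq too (9.11, 8.99 and 9.07, against 7.33, 7.51 and 7.38, a change of 1.65 with an adjusted p of 0.0493).

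Of 17 tested chaperones and folding enzymes of the endoplasmic reticulum, 0 had an r above 0.9 with Hspa5 in either tissue. Over all genes the share was 0.842% in cortex and 0.193% in medulla, so 0 of 17 is near it. The SD of the 17 over the arrays ran from 0.10 to 0.42 in cortex and from 0.13 to 0.46 in medulla. That of Hspa5 was 1.16 and 1.02. The r of these genes over the 18 arrays ran from -0.67 (Sil1) to 0.73 (Pdia6) in cortex and from -0.73 (Pdia4) to 0.82 (Dnajb9) in medulla. The median was -0.13 in cortex and -0.19 in medulla. Pdia6 had 0.74 in medulla and Dnajb9 0.55 in cortex, while Sil1 had -0.58 in medulla and Pdia4 -0.45 in cortex. Hsp90b1, the Hsp90 of that compartment, read 13.02, 12.26 and 12.42 in cortex at 3.6 MBq, highest on the same array as Hspa5, within a range of 12.26 to 13.17 over all 18 arrays (r = 0.72), and was not called. In cortex 1 of the 17 was called in at least 1 of the tissue's 8 comparisons, as were 3.37% of all genes, and in medulla 1 of 17, against 9.52% of all genes, both lower. Calr, the lectin chaperone calreticulin, stood at 9.65, 9.78 and 9.75 in medulla at 14 MBq, against 10.78, 10.55 and 10.86 at 0 MBq, below on all 3 arrays (adjusted p = 0.0161). Pdia3, a disulphide isomerase that works with it, was 0.92 ± 0.21 lower in cortex at 14 MBq (11.79, 11.51 and 12.30, against 12.86, 12.87 and 12.64, adjusted p = 0.0407). Without replicate 1 at 0 MBq neither passed, with adjusted p of 0.0598 and 0.157. Without replicate 2 at 0 MBq Calr passed (adjusted p = 0.0259) and Pdia3 did not (adjusted p = 0.122).

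**Figure D4:**
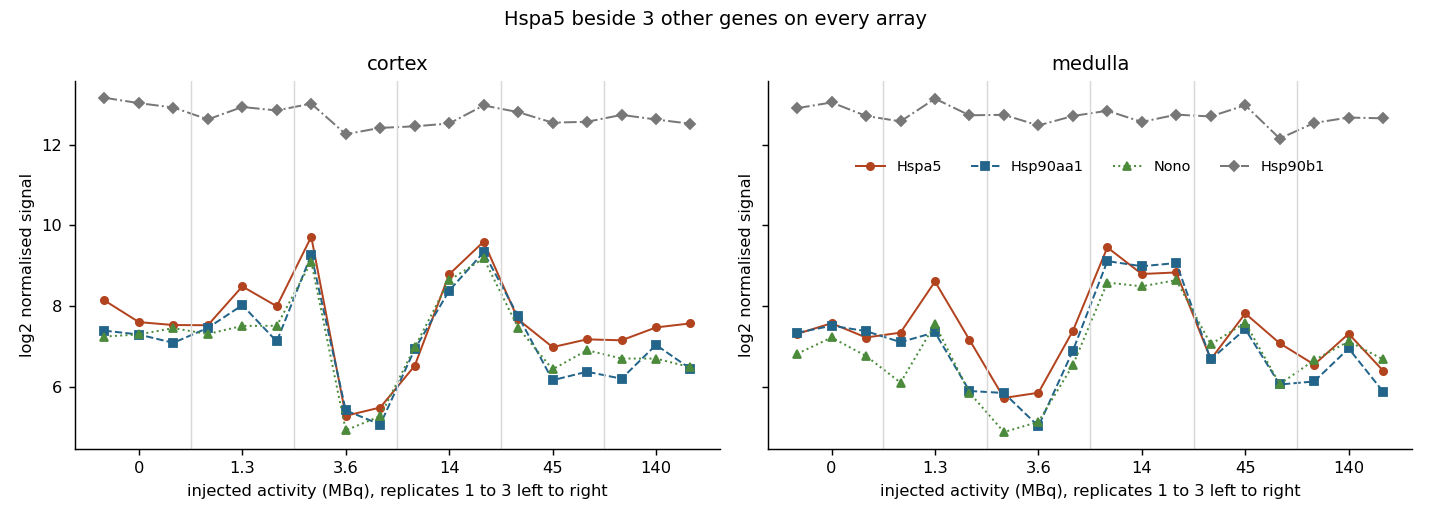
Log2 normalised signal of Hspa5, Hsp90aa1, Nono and Hsp90b1 (vertical axis) on every array of cortex (left) and medulla (right), grouped by injected activity in MBq with replicates 1 to 3 from left to right. Hspa5, Hsp90aa1 and Nono rise and dip on the same arrays, with replicate 1 at 3.6 MBq in cortex high and the other 2 low, while Hsp90b1 stays between 12.16 and 13.17. Nono was taken as the gene nearest to Hspa5 in cortex, and Hsp90aa1 was chosen after its values were seen.

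Herpud1 encodes a membrane scaffold of the machinery that sends misfolded protein from the endoplasmic reticulum to degradation. It was the only gene of the 10 whose injected arrays all lay above the 0 MBq arrays, and both of its probes did so in both tissues. In cortex the main probe read 12.92, 13.50 and 13.36 at 0 MBq, 13.63, 13.71 and 13.60 at 1.3 MBq, 13.86, 13.65 and 14.05 at 3.6 MBq, 13.91, 13.72 and 13.80 at 14 MBq, 13.98, 14.10 and 14.01 at 45 MBq, and 13.93, 13.87 and 13.71 at 140 MBq. The lowest of the 15 injected arrays was thus 13.60, against a highest 0 MBq array of 13.50. All 15 injected arrays lay above the 3 at 0 MBq for 1.12% of all genes in cortex and 1.38% in medulla.

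The mean of the 5 activities was 0.57 ± 0.12 higher in cortex (adjusted p = 0.0239), 1 of the 9 genes called there against 2.31% of all genes. The largest single change of Herpud1 was at 45 MBq, where the mean was 14.03, against 13.26 at 0 MBq (0.77 ± 0.16, 1.70-fold, adjusted p = 0.0316). At 1.3, 3.6, 14 and 140 MBq the changes were 0.39, 0.59, 0.55 and 0.58, with adjusted p between 0.101 and 0.333. Replicate 1 at 0 MBq was the lowest of the 18 cortex arrays, and without it the mean change was 0.41 (adjusted p = 0.220) and that at 45 MBq 0.60 (adjusted p = 0.139). With the replicate number as a block the adjusted p was 0.0468 for the mean and 0.0619 at 45 MBq.

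In medulla, too, every injected array lay above the 0 MBq arrays. The main probe read 13.24, 13.40 and 13.18 at 0 MBq, 13.51, 13.50 and 13.57 at 1.3 MBq, 13.81, 13.40 and 14.08 at 3.6 MBq, 13.87, 13.82 and 13.83 at 14 MBq, 13.46, 13.78 and 13.87 at 45 MBq, and 13.77, 13.45 and 13.51 at 140 MBq. The gap was narrow, since replicate 2 at 3.6 MBq and replicate 2 at 0 MBq both round to 13.40. The mean change was 0.41 ± 0.12 (adjusted p = 0.0732), and 0 of the 9 genes were called for it in medulla (4% of all genes). An unadjusted p under 0.05 was found for 2 of the 9, and for 2115 of all 10869 genes. Tested as its own probe, the second Herpud1 probe was higher by 0.71 ± 0.15 in cortex (adjusted p = 0.0253) and by 0.47 ± 0.11 in medulla (adjusted p = 0.0332). No slope was called for Herpud1, with 0.03 per doubling in cortex and 0.00 in medulla.

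No difference between the tissues in these responses passed the test of that difference, which does not show that they were alike. The tissue by activity interaction called 0 of 11471 genes in limma's test (0%), where 186 had an unadjusted p under 0.05, and none of the 9 genes was among those.

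Other genes of the pathways were taken from 6 lists written with earlier results known. A gene of a list is counted where at least 1 of its tissue's 8 comparisons called it, as happened for 3.37% of all genes in cortex and 9.52% in medulla. Of the ATF4 targets of amino acid supply and translation, 27 were tested in cortex and 25 in medulla, and 1 was called, Ddit4 in both. Ddit4, an inhibitor of mTORC1 that p53 also induces, stood in cortex at 9.67, 9.57 and 9.73 at 140 MBq, against 8.29, 8.21 and 7.62 at 0 MBq, and was called there (1.61 ± 0.21, adjusted p = 0.000727) and for the slope (0.19 ± 0.03 per doubling, adjusted p = 0.00601). In medulla it read 9.76, 9.34 and 9.57, against 8.35, 8.98 and 8.47, without overlap (0.96 ± 0.20, adjusted p = 0.0247), a call that was lost without replicate 1 (0.115) or replicate 3 (0.0521) at 0 MBq. The list's median change over the 5 activities was 0.06 in cortex and -0.09 in medulla, where that of all genes was 0.00. Of the cytosolic aminoacyl-tRNA synthetases, which ATF4 also induces, 0 of 16 in cortex and 0 of 17 in medulla were called for any difference. An unadjusted p under 0.05 was found for 1 in each. Over all genes it was found for 1274 of 10803 in cortex and 2804 of 10869 in medulla.

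Among the serine, glycine and one-carbon enzymes, 2 of 25 tested in cortex were called (3.37% of all genes) and 3 of 24 in medulla (9.52%), all higher, and no test of the list was made. They were Gldc, Ftcd and, in medulla, Shmt2. Gldc, the glycine-splitting subunit of the glycine cleavage system, read 13.34, 13.21 and 13.12 in medulla at 1.3 MBq, against 11.19, 12.20 and 11.80 at 0 MBq. That change was 1.49 ± 0.29 (adjusted p = 0.0288, and 0.130 without replicate 1 at 0 MBq). Gldc was also called in medulla at 3.6 MBq, where the change of Psat1 was 0.07. There the change of Gldc was 1.24 (adjusted p = 0.0419, and 0.151 without replicate 1 at 0 MBq). The mean of Gldc over the 5 activities was 1.05 ± 0.23 higher in cortex (adjusted p = 0.0270) and 1.06 ± 0.23 higher in medulla (adjusted p = 0.0176). Shmt2, the mitochondrial enzyme that turns serine into glycine, read 8.91, 8.75 and 8.97 in medulla at 1.3 MBq, against 7.19, 7.56 and 8.49 (1.13 ± 0.24, adjusted p = 0.0420). It too was called in medulla at 3.6 MBq (1.05, adjusted p = 0.0407, and 0.135 without replicate 1 at 0 MBq). Without replicate 2 at 0 MBq neither call of Shmt2 held, with adjusted p of 0.142 at 1.3 MBq and 0.120 at 3.6 MBq.

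Ftcd, which feeds carbon from histidine into folate, followed the activity instead. It rose by 0.25 ± 0.04 per doubling in cortex (adjusted p = 0.00136) and by 0.21 ± 0.04 in medulla (adjusted p = 0.00466), and read 9.29, 8.87 and 8.38 in cortex at 140 MBq, against 5.77, 8.60 and 7.39 at 0 MBq. Replicate 1 at 0 MBq was the lowest of its group for Gldc, Shmt2 and Ftcd in both tissues. Without it the mean change of Gldc was 0.63 in cortex (adjusted p = 0.228) and 0.79 in medulla (adjusted p = 0.169), and that of Shmt2 at 1.3 MBq in medulla 0.85 (adjusted p = 0.166). The slopes of Ftcd do not use the 0 MBq arrays.

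**Figure D5:**
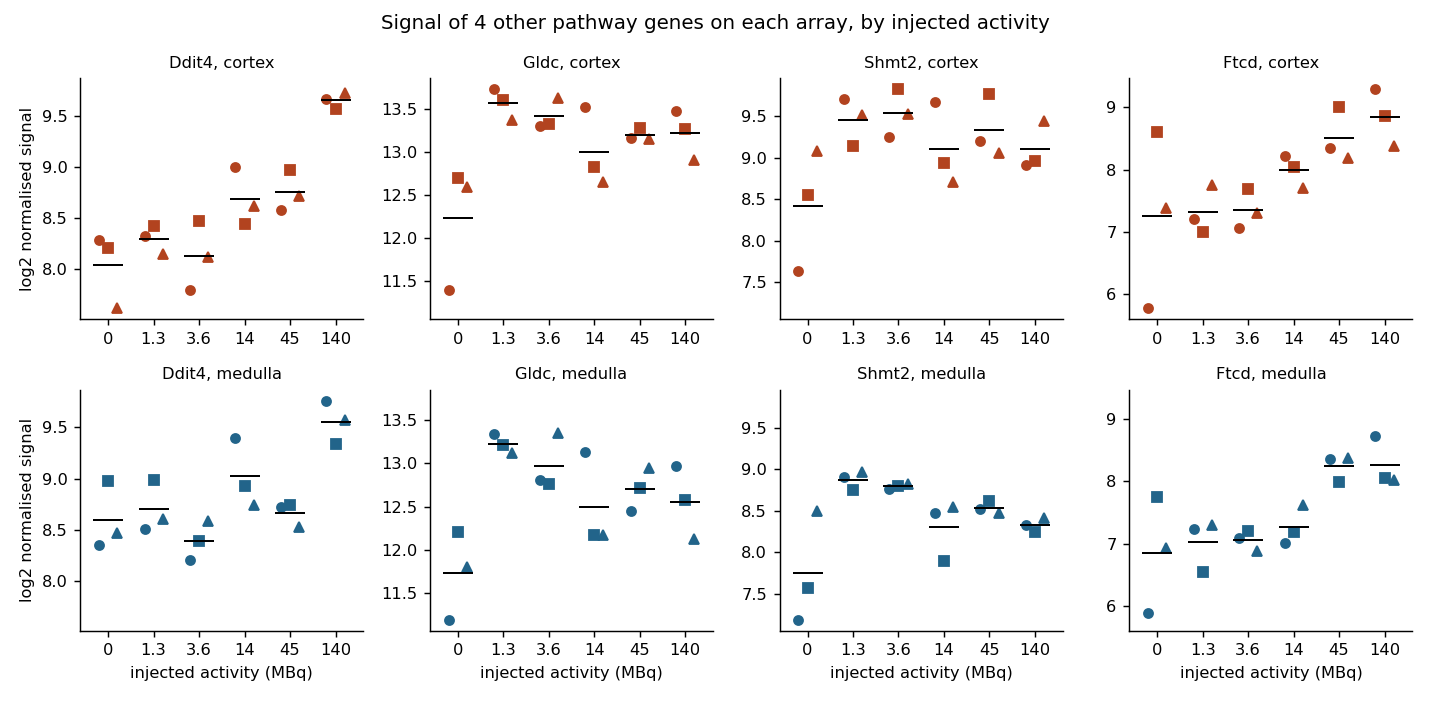
Log2 normalised signal (vertical axis) of Ddit4, Gldc, Shmt2 and Ftcd on every array by injected activity in MBq (horizontal axis), cortex above and medulla below. Circles, squares and triangles are replicates 1, 2 and 3 and bars are group means. Ddit4 is highest at 140 MBq in both tissues, Ftcd climbs with activity, and the circle at 0 MBq (replicate 1) is the lowest 0 MBq point of Gldc, Shmt2 and Ftcd.

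Of the kinases and sensors that start these responses, 13 were tested in each tissue. In cortex 2 were called (3.37% of all genes) and in medulla 0 (9.52%). In the test for any difference 5 of the 13 in medulla had an unadjusted p under 0.05, as did 2804 of all 10869 genes. Besides Creb3l3, given above, the gene called in cortex was Eif2ak2, the double-stranded RNA kinase PKR that phosphorylates eIF2alpha and is an interferon target. It was lower in cortex at 1.3 MBq (9.71, 9.77 and 9.70, against 11.09, 10.56 and 10.53, with an adjusted p of 0.0499), below on all 3 arrays. Without replicate 1 at 0 MBq the change was -0.82 (adjusted p = 0.197), and without replicate 2 it was -1.08 (adjusted p = 0.0856). There were 16 tested degradation and transport genes of the endoplasmic reticulum in each tissue. For any difference in cortex 0 had an unadjusted p under 0.05, against 1274 of all 10803 genes. Of the 16, 0 were called in cortex and 1 in medulla. This was Spcs2, a signal peptidase subunit, with 6.19, 6.66 and 6.20 at 14 MBq, against 5.76, 5.46 and 5.59 at 0 MBq, of which only the first was detected (adjusted p = 0.0398). That call was lost without any 1 of the 3 arrays at 0 MBq (adjusted p 0.0523 to 0.0998), while the test for any difference called Spcs2 with all arrays (0.0112) and under each of these omissions (0.0104 to 0.0179).

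The labelled tissues were set against their markers on the injected arrays. Of 8 thick ascending limb markers 5 were higher in medulla and 0 in cortex, and of 11 proximal tubule markers 5 were higher in cortex and 2 in medulla. Of 11 collecting duct markers 5 were higher in medulla and 3 in cortex. Slc34a1 of the proximal tubule, Umod of the thick limb and Aqp2 of the collecting duct were detected on all 36 arrays, so their detection does not separate the tissues. Of 12 myeloid markers 8 were higher in medulla and 0 in cortex. Over all genes 22.6% were called in this comparison of the tissues.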

How the data were processed

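The deposited table held raw linear bead intensity values, which per the file headers are not normalised, and beside each intensity a detection p-value, deposited by the authors, that ranks the probe among negative controls. The authors' separately normalised series table served as an alternative. Of 25697 probes, 23974 had 1 gene symbol and 1723 none, and 0 columns of values were left unused. With neqc of limma 3.58.1 in R 4.3.3, the background was estimated from the detection p-values, arrays were quantile-normalised, an offset of 16 was added and log2 taken. Files were read with data.table (version 1.17.8), and figures were drawn with matplotlib 3.10.9 under Python 3.11.15. Probes entered a fit when detected, at p under 0.05, on 3 or more of its arrays, and a gene was read from its brightest probe. limma was fitted per tissue on 18 arrays (12 residual degrees of freedom), for the slope on 15 injected arrays (13), and for tissue comparisons on 36 (24), with Benjamini-Hochberg adjustment over all genes tested. Bounds set the brighter mean against the detection limit.

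All 10 genes are named in every comparison. Of each pathway list up to 4 genes with the smallest p for any difference are named, beside Cdkn1a and the 5 genes nearest to Psat1. Extending likeness to Asns, Atf4 and Hspa5 was decided later. The members, lists and tests were chosen with earlier results of these data known. Deviations of same-numbered cortex and medulla arrays at 0 MBq correlated at 0.613 to 0.659, and over all 18 pairs r lay between -0.304 and 0.659 (14 above 0.1). Within a tissue 9 of 45 cortex and 10 of 45 medulla pairs exceeded 0.1, so the number does not pair activities. The labels give no pairing, so any pairing of tissues at 0 MBq would be read from these values alone. No r of differently numbered cortex and medulla arrays is set beside them, so they do not decide it. No 2 arrays held identical values (r within groups 0.935 to 0.988). Alternative settings were the authors' normalisation, omitting background correction, omitting the detection filter, testing every probe, a replicate block, 1 fit of 36 arrays, and leaving out each array. The procedure was tested on simulated data.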

Additional observations from a re-analysis of the deposited data

Results flagged for a closer look

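At 45 MBq every cortex array of Ddit3 lay above the 0 MBq mean of its tissue and every medulla array below, though neither change passed the test. The cortex arrays read 7.48, 7.86 and 7.76, against a 0 MBq mean of 7.37 (0.33 ± 0.43), and the medulla arrays 7.43, 7.33 and 7.35, against 7.44 (-0.07 ± 0.21). The difference between the 2 changes was 0.40, and limma's test of that difference at 45 MBq gave an adjusted p of 1.00. In medulla the 0 MBq mean includes replicate 1, which read 8.13 where the other 2 read 7.25 and 6.94. Without replicate 1 at 0 MBq of the tissue, the change was 0.56 in cortex and 0.27 in medulla, of the same sign.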

How the results depend on the processing

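No called change of a gene reversed its sign under any alternative. Of the 90 changes of the 9 genes at single activities, 29 turned their sign when some 1 array was left out, 0 of them called and none above 0.54 in size. The interaction, the comparison of tissues at 0 MBq and the slope in cortex gave 0 genes of the 9 throughout. In the fit of 36 arrays, cortex had 1 gene called at 3.6 MBq, 1 at 14 MBq and 1 at 140 MBq (each Herpud1) and 3 for any difference (Psat1, Sesn2 and Herpud1), while medulla had 1 at 1.3 MBq (Sesn2 lost, adjusted p 0.224), 0 at 14 MBq and 3 for any difference (Hspa5 lost). With the deposited normalisation, and with no background correction, medulla had 1 at 1.3 MBq (Sesn2 lost, adjusted p 0.0624 and 0.0601), 2 at 14 MBq (with Herpud1) and 1 at 45 MBq (Sesn2), and with no background correction also 1 for the mean of the 5 activities (Herpud1). Under these 2 settings the Sesn2 slope was 0.12 and its difference between tissues 0.24 and 0.25, and the differences between tissues were -0.18 and -0.19 for Phgdh and 0.10 for Trib3, all called. With no detection filter medulla had 0 at 14 MBq (Hspa5, adjusted p 0.0670).

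With the replicate number as a block, cortex had 0 at 45 MBq (Herpud1), and medulla 0 at 14 MBq (Hspa5) and 1 at 45 MBq (Sesn2, adjusted p 0.0438), and no other call changed. With activity and number as 18 blocks, Herpud1 was also called between tissues (0.15, adjusted p 0.0494). This block and the omission of the cortex arrays with an adipocyte mean above 2 were chosen after seeing the data. That omission gave cortex 0 at 45 MBq, 1 for any difference (Psat1) and 2 for the mean of the activities (Psat1 and Herpud1).

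With 1 array left out at a time, the number called in cortex ran from 0 to 1 at 1.3, 3.6 and 45 MBq and for any difference, and from 0 to 2 for the mean. In medulla it ran from 0 to 2 at 1.3 and 3.6 MBq, 0 to 3 at 14 MBq, 0 to 1 at 45 and 140 MBq and for the mean, and 2 to 5 for any difference. Other counts did not move, save 3 to 4 between tissues. The cause of these moves was not tested.

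Counts over all genes, which set the shares printed beside the members, moved more. With 1 array left out they ran from 10 to 157, 13 to 432, 24 to 348, 21 to 347 and 49 to 148 in cortex at the 5 activities from low to high, 47 to 351 for any difference, 47 to 528 for the mean and 45 to 88 for the slope. In medulla they ran from 3 to 431, 48 to 710, 59 to 869, 65 to 813 and 73 to 296, 230 to 1001 for any difference, 93 to 892 for the mean and 65 to 90 for the slope, and 21 to 71 genes differed between tissues at 0 MBq. The fit of 36 arrays called 227, 261, 524, 305 and 282 genes in cortex at the 5 activities from low to high, against 36, 47, 148, 107 and 103, and 421 for any difference, against 78. In medulla it called 114 at 3.6 MBq, 167 at 14 MBq and 161 at 45 MBq, against 209, 474 and 257, and 200 for any difference, against 567. The deposited normalisation called 56 and 73 in cortex at 1.3 and 3.6 MBq, and in medulla 316 at 3.6 MBq, 873 for any difference and 133 for the slope, against 88; no background correction gave 55, 76, 322, 879 and 133. The replicate block called 18, 82 and 68 in cortex at 1.3, 14 and 45 MBq and 353 in medulla for any difference. No detection filter gave 90 in cortex at 14 MBq. Without the adipocyte-rich arrays cortex had 14, 328 and 58 at 1.3, 14 and 45 MBq and 124 for any difference. At 0 MBq, 44 genes differed between tissues, 67 with every probe and 154 with 18 blocks.

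Signal over background limits the dim probes: that of Phgdh was detected on 24 of 36 arrays, the second Sesn2 probe on 16, that of Trib3 on 14 and that of Psph on 0.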
